A study of Mus musculus with 18 samples.

Results

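Genes of the urea cycle and of gluconeogenesis were measured in the liver of mice that lack repeat B of Xist and of wild-type mice. The group holds 9 of the 51826 genes listed in the liver table, chosen by symbol: Cps1, Ass1, Asl, Arg1, Nags, Glul, Pck1, Fbp1 and Tat. All 9 passed the filter on low counts in every liver comparison. None of the 9 passed the test between genotypes. Between libraries of replicate number 1 and those of numbers 2 and 3, Ass1, Nags and Glul were lower and Pck1 was higher in replicate 1, with Ass1 differing 3.29-fold and Pck1 2.73-fold. Of these 4 calls that of Pck1 alone was kept with replicate number as a block, and none of the 9 genes passed when any single WT library was left out.

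The urea cycle turns ammonia from amino acid breakdown into urea in hepatocytes around the portal vein. Nags makes the activator of Cps1, which fixes ammonia, and Ass1, Asl and Arg1 carry the nitrogen on to urea, while Glul takes up the remaining ammonia as glutamine in the hepatocytes next to the central vein. Pck1 and Fbp1 catalyse committed steps of gluconeogenesis, the making of glucose in fasting, and Tat starts the breakdown of tyrosine and is a textbook target of glucocorticoids.

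The livers were sampled as 3 RepB-/- and 3 WT libraries of poly(A) RNA, numbered 1 to 3 within each genotype. RepB-/- stands for a homozygous deletion of repeat B within Xist made with CRISPR/Cas9, and WT mice carry no deletion. The same genotypes were sampled as 3 and 3 libraries of primary mouse embryonic fibroblasts (MEFs). The labels give no age, strain, sex, feeding state or hour of sampling for any library, and do not say what the replicate number stands for or whether libraries came from separate animals, so p-values measure the spread between these libraries. Brain libraries were not analysed here.

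Depth was between 37682201 and 51542709 counts per liver library. Xist was counted 14494 to 26345 times in 5 liver libraries, which does not read the deletion of its repeat, and 4 times in the library labelled RepB-/- replicate 2. That library also held 438 to 1669 counts of each of Uty, Kdm5d, Ddx3y and Eif2s3y on the Y chromosome, against at most 1 count of any of these 4 genes elsewhere. Xist RNA normally comes from the inactive X chromosome of females. That library thus reads as male, and the study writes the deletion in males as RepB-/Y. The homozygous genotype of its label therefore cannot hold for it. Xist counts do not check whether it carries the deletion. Its label was followed, and results are also given without this library. Albumin, the main secreted protein of hepatocytes, reached 81925 to 163160 normalized CPM (counts scaled to a common depth with TMM factors) in all 6 libraries.

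Replicate 1 of both genotypes stood apart from replicates 2 and 3. The 10 genes of a fetal liver list, among them Afp, H19 and Igf2, summed to 6161 normalized CPM in RepB-/- replicate 1 and 4959 in WT replicate 1, but to between 25.8 and 61.6 in the other 4 libraries. The hepatocyte list of 11 genes, in contrast, summed to 126630 and 166100 in replicate 1 and to between 142650 and 212830 in the others. Of the fetal liver genes, Lin28b was at 0 in every library and Igf2bp1 in all but WT replicate 1.

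**Figure D1:**
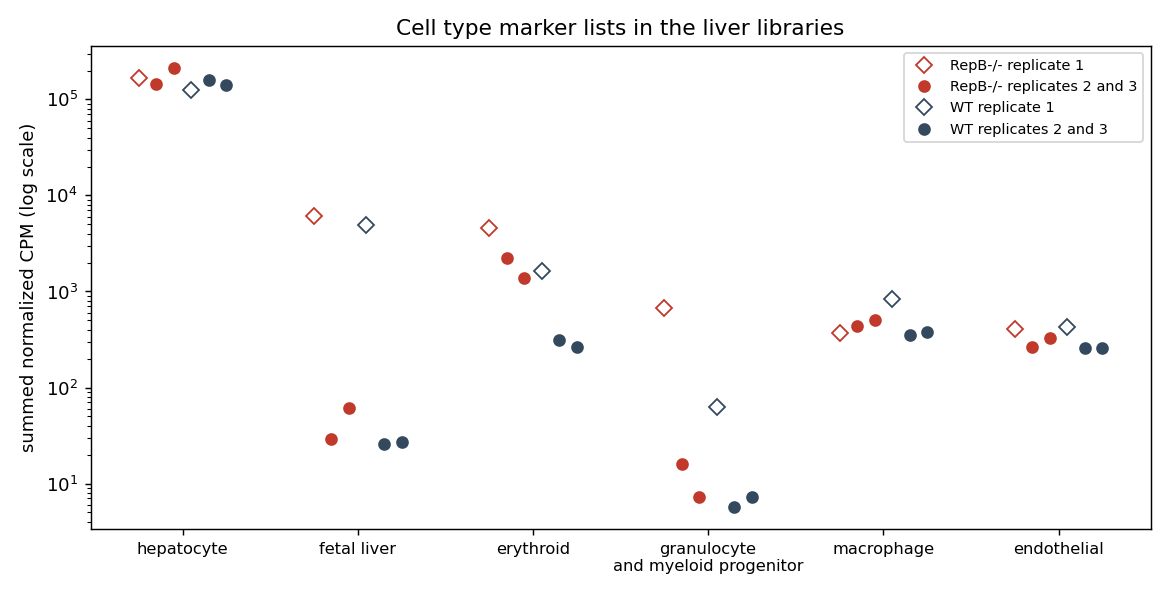
Summed normalized CPM (log axis) of 6 cell type marker lists in each liver library; open diamonds are replicate 1 and filled circles replicates 2 and 3, in red for RepB-/- and grey for WT. The fetal liver list lies at 4959 and 6161 in replicate 1 and at or below 61.6 elsewhere, while the hepatocyte list lies at or above 126630 in every library.

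Levels of the 9 genes were first set in order by the deposited TPM, which corrects for gene length. Ass1 (argininosuccinate synthase, chr2:31470207-31520672 in GRCm38) had the highest median, 2236 TPM, with a range of 786 to 4371 TPM over the 6 libraries. It was followed by Fbp1 (fructose bisphosphatase, chr13:62864753-62888282) with a median of 1093 TPM, Pck1 (cytosolic phosphoenolpyruvate carboxykinase, chr2:173153048-173159273) with 920 TPM and Arg1 (arginase, chr10:24915221-24927484) with 870 TPM. The next medians were 614 TPM for Cps1 (carbamoyl phosphate synthetase, chr1:67123026-67231259), 584 TPM for Tat (tyrosine aminotransferase, chr8:109990437-109999803) and 406 TPM for Glul (glutamine synthetase, chr1:153899944-153909723). Asl (argininosuccinate lyase, chr5:130011258-130029247) stood at 270 TPM and Nags (N-acetylglutamate synthase, chr11:102145513-102149477) at 50.6 TPM. Asl lay below Glul and Nags below Asl in 6 of 6 libraries, whereas every other pair of neighbours in this order changed places in at least 1 library. Neighbours among the first 7 genes were therefore not separated beyond their spread. Pck1 had a median of 1166 TPM in RepB-/- and of 297 TPM in WT, and had the second highest median of the 9 in RepB-/- and the second lowest in WT.

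**Figure D2:**
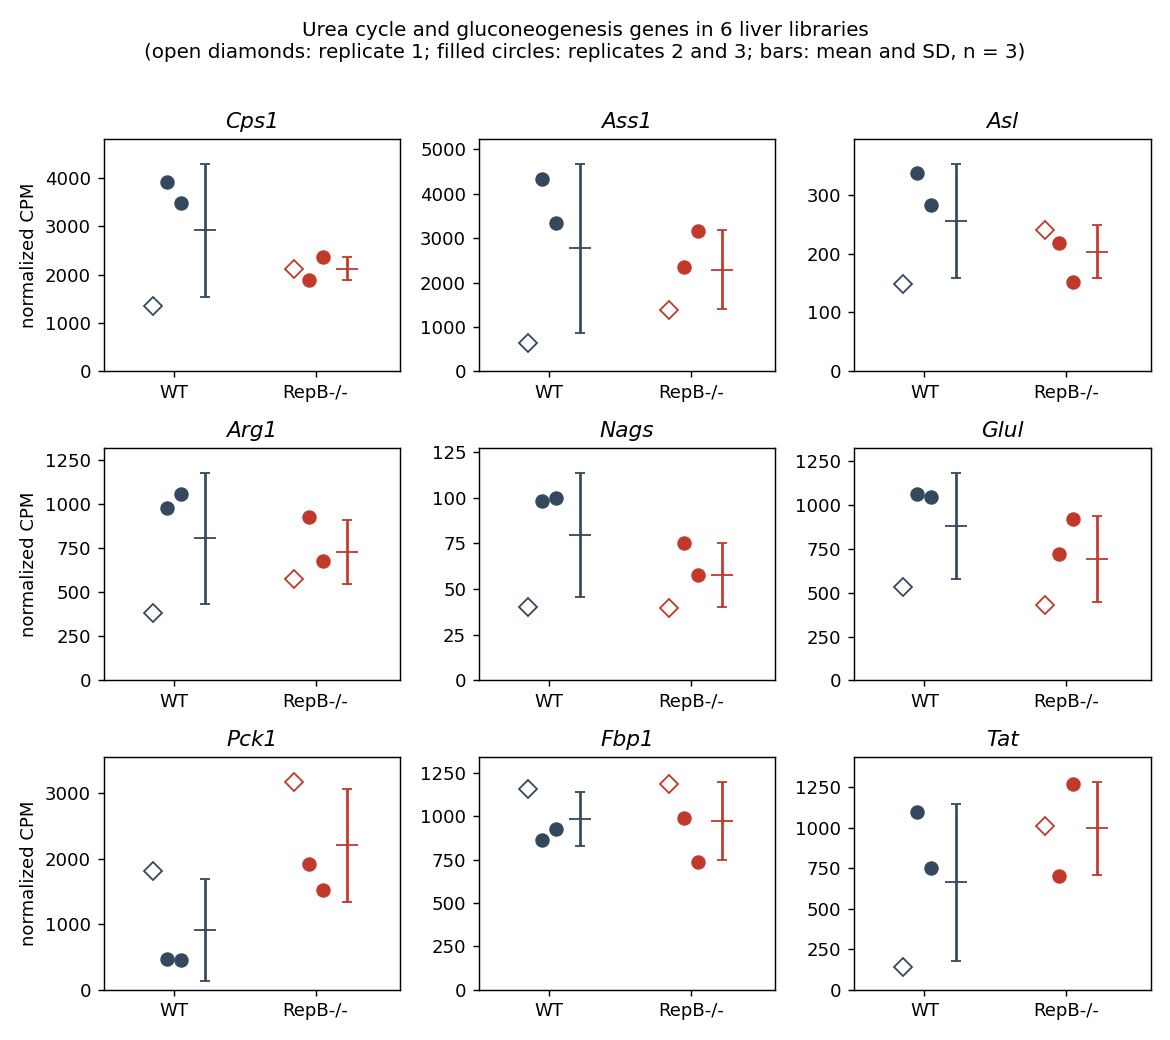
Normalized CPM of the 9 genes in each liver library by genotype; open diamonds are replicate 1, filled circles replicates 2 and 3, and bars the mean and SD of 3 libraries. Libraries of the genotypes overlap in all 9 panels, and the replicate 1 diamonds lie at the bottom for Ass1, Arg1, Nags and Glul and at the top for Fbp1.

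The genotypes were then compared, the contrast for which the series was made. By edgeR's quasi-likelihood test 6 of 16080 genes passed at an adjusted p of 0.05, a background of 0.0373%, and 0 of the 9 genes did. At an unadjusted p under 0.05 there were 502 genes and none of the 9, and DESeq2 called 75 genes and none of the 9. With replicate number as a block, 8 genes passed, 3 higher and 5 lower in RepB-/- against 1 and 5 without it, and again none of the 9. The libraries of the genotypes overlapped for 9 of 9 genes, where 8.05% of all tested genes did not overlap. The median log2 difference of the 9 genes, RepB-/- minus WT, was −0.28, beside 0.012 over all tested genes, and 7 of 9 differences were below 0. This median was −0.043 with the replicate block and −0.034 with a term for replicate 1, and with 1 library left out it ran from −0.61 without WT replicate 1 to −0.079 without WT replicate 2.

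Among the enzymes of the cycle, Cps1, which fixes ammonia, stood at 2110, 1895 and 2364 normalized CPM in RepB-/- replicates 1, 2 and 3 and at 1341, 3930 and 3481 in WT. The WT values enclosed the RepB-/- values, and the mean was 2917 ± 1383 in WT against 2123 ± 235 in RepB-/- (SD, n = 3 libraries each). The log2 difference was −0.46 ± 0.48 (SE) with an adjusted p of 1.00. For Ass1, which joins citrulline to aspartate, the libraries held 1379, 2341 and 3151 normalized CPM in RepB-/- and 647, 4335 and 3336 in WT. The lowest and the highest library were both WT, and the log2 difference was −0.28 ± 0.71. It was 0.031 with a term for replicate 1 and 0.036 with the replicate block, so that even its sign depended on the model.

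Asl, which cleaves argininosuccinate, read 240, 218 and 152 normalized CPM in RepB-/- and 148, 337 and 283 in WT. Arg1, which releases urea, read 576, 930 and 678 in RepB-/- and 382, 980 and 1062 in WT. Nags read 39.8, 74.9 and 57.8 in RepB-/- and 40.2, 98.4 and 99.9 in WT. In each of these genes WT replicates 2 and 3 were above all RepB-/- libraries and WT replicate 1 was not. Their log2 differences were −0.33 ± 0.37, −0.15 ± 0.46 and −0.47 ± 0.41, with adjusted p of 1.00 for each. Glul, the glutamine synthetase of the central vein, read 431, 723 and 919 normalized CPM in RepB-/- and 534, 1065 and 1047 in WT, again with WT replicates 2 and 3 highest, and differed by −0.35 ± 0.43.

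Pck1 had the widest gap between genotypes of the 9 genes. It read 3172, 1923 and 1519 normalized CPM in RepB-/- and 1816, 466 and 461 in WT, so that WT replicate 1 reached the RepB-/- range. The mean was 2205 ± 862 in RepB-/- against 914 ± 781 in WT (SD, n = 3 libraries each). The log2 difference was 1.27 ± 0.66 with an adjusted p of 1.00 and an unadjusted p of 0.097. With the replicate block it was 1.53 ± 0.34 (adjusted p = 0.457), and over replicates 2 and 3 alone, an alternative chosen after the data had been seen, 1.90 ± 0.26 (adjusted p = 0.136). Without WT replicate 1 it was 2.25 ± 0.47 (adjusted p = 0.529), and without the library with Y-linked counts 1.36 ± 0.78 (adjusted p = 0.999). RepB-/- exceeded WT in 3 of 3 replicate numbers, 1 of which holds the library with Y-linked counts, but the difference failed the correction over all genes in every fit. Genotype differences of erythroid, myeloid and megakaryocyte markers were also above 0, as were those of proliferation and of stellate and fibroblast markers. Those of lymphocyte and macrophage markers were split. The erythroid list summed to 1397 to 4541 normalized CPM in RepB-/- and to 262 to 1630 in WT. The log2 difference was above 0 for 11 of 11 tested erythroid genes (median 1.87), 7 of 7 of granulocytes and myeloid progenitors (median 3.12) and 4 of 4 of megakaryocytes (median 2.87). Lymphocyte genes had 4 above and 4 below 0 (median 0.052), macrophage genes 3 and 5 (median −0.16). The differences were also above 0 for 10 of 10 proliferation genes (median 0.68) and 8 of 8 stellate and fibroblast genes (median 0.23). Hepatocyte genes had 10 above and 1 below 0 (median 0.089), fetal liver and endothelial genes 5 and 2 each. The myeloid list summed to 676 in RepB-/- replicate 1 and to 62.3 in WT replicate 1. In numbers 2 and 3 it summed to 16.0 and 7.23 in RepB-/- against 5.63 and 7.31 in WT. For megakaryocytes these sums were 156 and 16.2 in number 1, and 6.26 and 3.30 against 3.64 and 4.16 in numbers 2 and 3. None of these genes passed, but Slc4a1, the anion exchanger of red cells, chosen after its values were seen, did with a term for replicate 1 (adjusted p = 0.0091). The part of these cells in the genotype gap of Pck1 was not tested.

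Fbp1, the gluconeogenic bisphosphatase, was the steadiest of the 9 genes, with 1188, 990 and 738 normalized CPM in RepB-/- and 1158, 863 and 929 in WT. Its highest library was only 1.61 times its lowest, and its log2 difference was −0.017 ± 0.32. Tat read 1013, 702 and 1274 in RepB-/- and 141, 1100 and 749 in WT. A single library, WT replicate 1, set its 9.01-fold range, and its log2 difference was 0.59 ± 0.70. Without the library with Y-linked counts 0 of the 9 genes passed as well.

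**Figure D3:**
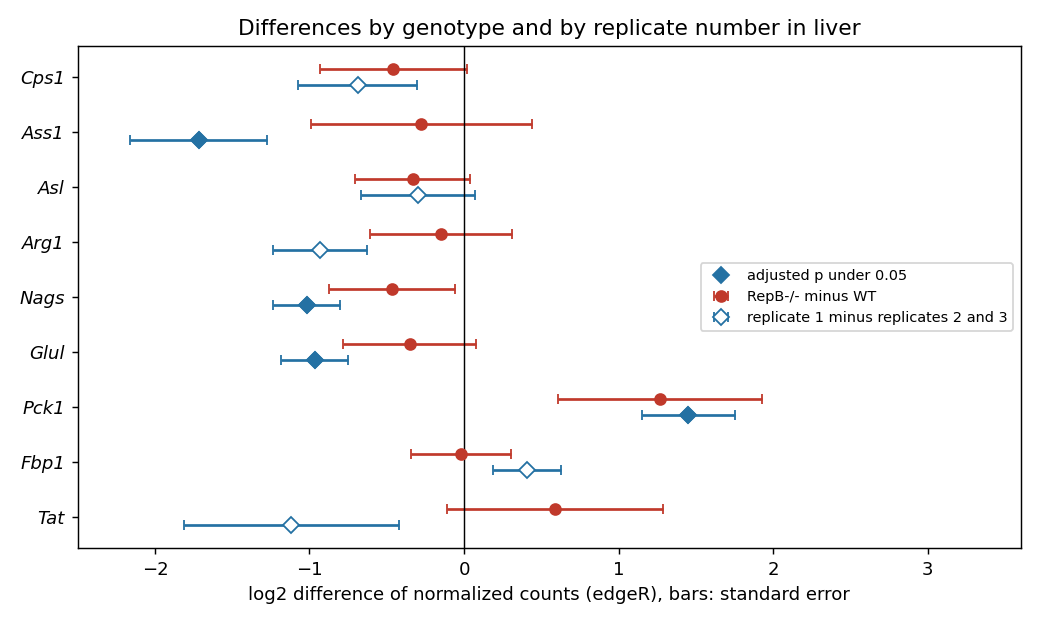
Log2 differences fitted by edgeR for the 9 genes, with standard errors, for RepB-/- minus WT (red circles) and for replicate 1 minus replicates 2 and 3 (blue diamonds; filled where the adjusted p was under 0.05). Ass1, Nags and Glul fall at −1.72, −1.02 and −0.97 and Pck1 at 1.45 in the replicate comparison, while no genotype difference passed.

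Replicate 1 was compared with replicates 2 and 3 in a model that also held genotype. Pck1 was higher in replicate 1 by a log2 difference of 1.45 ± 0.30 (adjusted p = 0.026). Ass1 was lower by a log2 difference of −1.72 ± 0.44 (adjusted p = 0.0476), Nags by −1.02 ± 0.22 (adjusted p = 0.0279) and Glul by −0.97 ± 0.22 (adjusted p = 0.0328). This is 1 gene higher and 3 lower of 9, where 8.76% of 17030 tested genes were higher and 6.82% lower. Their normalized CPM in replicate 1 were 647 and 1379 for Ass1 against 2341 to 4335 in the other 4 libraries, 39.8 and 40.2 for Nags against 57.8 to 99.9, and 431 and 534 for Glul against 723 to 1065. For Pck1 the libraries overlapped, since RepB-/- replicate 2 at 1923 exceeded WT replicate 1 at 1816, and the difference appeared within each genotype.

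The other 5 genes did not pass. Arg1 had a log2 difference of −0.93 ± 0.30 (adjusted p = 0.0872) although both replicate 1 libraries lay below all others. Tat differed by −1.12 ± 0.69 (adjusted p = 0.314), Cps1 by −0.69 ± 0.39 (adjusted p = 0.269) and Asl by −0.30 ± 0.37 (adjusted p = 0.628). Fbp1 differed by 0.41 ± 0.22 (adjusted p = 0.251), with both replicate 1 libraries above the others. In all, replicate 1 lay below all other libraries in 4 of 9 genes and above them in 1, beside 20.6% and 24.0% of all tested genes. The median of the 9 differences was −0.93, beside 0.0027 over all tested genes. Without WT replicate 1 it was −0.028, and without RepB-/- replicate 1 it was −1.32, so that the median rested on WT replicate 1.

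These calls rested on few libraries. With the replicate block, which takes same-numbered libraries as pairs, Pck1 alone of the 9 passed (adjusted p = 0.0463). Nags reached 0.0501, Glul 0.068 and Ass1 0.0765, with 7.14% of all genes higher and 4.54% lower. The labels do not say whether the numbers pair the libraries. None of the 9 passed without WT replicate 1, without WT replicate 2 or without WT replicate 3, and 2 passed without RepB-/- replicate 1, namely Pck1 and Ass1. Without the library with Y-linked counts Pck1, Ass1 and Glul passed and Nags did not (adjusted p = 0.0599). Without WT replicate 1 the log2 difference was 0.87 for Pck1, −1.01 for Ass1, −0.028 for Cps1 and 0.024 for Tat. Without RepB-/- replicate 1 that of Cps1 was −1.49. Scaling by library totals changed the calls over all genes to 2197 higher and 651 lower, from 1491 and 1161, and the hepatocyte list gave 1860 and 871. Pck1 passed under both scalings, Nags under the second. Without RepB-/- replicate 3, Arg1 passed (adjusted p = 0.0392) and Ass1 did not (adjusted p = 0.072).

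Markers of several cell types and of fetal liver moved with the same split. All 8 tested fetal liver genes, all 8 genes of granulocytes and myeloid progenitors and all 6 of megakaryocytes were higher in replicate 1, as were 8 of 12 erythroid, 6 of 8 lymphocyte, 3 of 8 stellate and fibroblast, 3 of 7 endothelial, 2 of 10 proliferation, 1 of 5 cholangiocyte, 1 of 8 macrophage and 1 of 2 pancreas genes. Of the stellate and fibroblast genes 1 was lower. Over all tested genes 8.76% were higher and 6.82% lower. The filter of this comparison was by genotype and replicate 1, so genes could enter through replicate 1, where they are high. Under the filter by genotype, 7 fetal liver, 7 myeloid and 4 megakaryocyte genes were tested, so these counts are partly set by the filter. With the replicate block 7 of 10 proliferation and 2 of 5 cholangiocyte genes were higher, but calls fell to 7 of 12 erythroid, 4 of 8 lymphocyte, 2 of 7 endothelial and 0 of 8 macrophage genes, and no stellate and fibroblast gene was lower. Without the library with Y-linked counts all 8 fetal liver, 7 of 8 myeloid, 7 of 12 erythroid, 2 of 6 megakaryocyte and 0 of 8 lymphocyte genes were higher. The myeloid list summed to 676 normalized CPM in RepB-/- replicate 1 and to 62.3 in WT replicate 1, against 5.63 to 16.0 elsewhere. In bulk RNA, fewer cells of a type and less RNA per cell cannot be told apart. Of 11 hepatocyte genes 1 was lower, Hnf4a, and none was higher. The part of cell makeup in the differences of the 9 genes was not tested.

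The promoters of the 4 genes that passed are printed because these genes were called together. RefSeq's table for GRCm38.p6 held the stretch from 250 bases before to 50 bases after the start for 6 of the 9 genes, and Cps1, Asl and Arg1 were not among them. The words searched on both strands were TATAAA (the TATA box), CCAAT (the CCAAT box), TGACG (half-site of the cAMP response element) and GCAAT (half-site of C/EBP), and no match overlapped another. Capitals mark the matches, and the lines run 5′ to 3′ on the gene's strand, which is plus for all 4. They lie at chr2:173152823-173153122 for Pck1, chr2:31470020-31470319 for Ass1, chr11:102145263-102145562 for Nags and chr1:153899679-153899978 for Glul.
Pck1: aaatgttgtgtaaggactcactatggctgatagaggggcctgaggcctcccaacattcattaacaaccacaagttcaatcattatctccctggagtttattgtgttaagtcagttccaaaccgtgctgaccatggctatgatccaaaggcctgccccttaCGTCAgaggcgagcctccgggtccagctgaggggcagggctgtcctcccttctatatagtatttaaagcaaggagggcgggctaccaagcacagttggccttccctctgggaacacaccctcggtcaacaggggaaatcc
Ass1: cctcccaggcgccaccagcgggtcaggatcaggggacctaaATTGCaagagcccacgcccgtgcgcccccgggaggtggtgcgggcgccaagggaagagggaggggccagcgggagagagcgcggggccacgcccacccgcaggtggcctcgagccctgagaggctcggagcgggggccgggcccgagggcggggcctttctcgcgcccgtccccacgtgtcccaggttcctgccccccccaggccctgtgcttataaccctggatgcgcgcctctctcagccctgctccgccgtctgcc
Nags: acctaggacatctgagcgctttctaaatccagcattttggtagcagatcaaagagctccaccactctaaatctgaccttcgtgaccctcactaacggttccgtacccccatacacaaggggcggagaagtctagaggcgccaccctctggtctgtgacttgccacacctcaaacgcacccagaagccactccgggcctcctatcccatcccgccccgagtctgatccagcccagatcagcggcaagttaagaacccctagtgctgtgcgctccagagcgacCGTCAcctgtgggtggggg
Glul: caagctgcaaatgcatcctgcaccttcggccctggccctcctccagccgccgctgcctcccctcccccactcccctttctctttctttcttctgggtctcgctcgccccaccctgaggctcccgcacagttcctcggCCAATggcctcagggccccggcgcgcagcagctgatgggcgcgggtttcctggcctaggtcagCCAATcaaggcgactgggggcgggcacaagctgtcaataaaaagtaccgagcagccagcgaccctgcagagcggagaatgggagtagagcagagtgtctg
The Pck1 promoter, long known to respond to cAMP in fasting, held TGACG on the minus strand with its match beginning at position −90, counted from the RefSeq start. Nags held the same word at position 32 after the start, and 20.8% of 32851 promoters held it. Ass1 held GCAAT at position −209, a word in 26.4% of promoters. Glul held CCAAT at −113 and at −50, a word in 37.4% of promoters. None of the 4 held TATAAA, which 13.6% of promoters held. The called genes shared no word among all 4, and these matches describe letters only.

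The genotype difference was next read within each replicate number, where each value compares 1 RepB-/- with 1 WT library and has no replicate. In number 1, Tat was 7.17 times as high in RepB-/- as in WT, Ass1 2.13 times, Asl 1.62 times, Cps1 1.57 times and Arg1 1.51 times. In number 2 the ratio of Cps1 was 0.482, of Ass1 0.540, of Asl 0.647 and of Arg1 0.950, and in number 3 these ratios were 0.679, 0.945, 0.538 and 0.638. These 4 genes thus lay above WT in number 1 and below it in numbers 2 and 3. Pck1 kept 1 direction, with ratios of 1.75, 4.13 and 3.30 in numbers 1, 2 and 3, and Glul the opposite one, with 0.807, 0.679 and 0.877. Nags had ratios of 0.990, 0.762 and 0.579. All ratios of number 2 rest on the library with Y-linked counts.

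**Figure D4:**
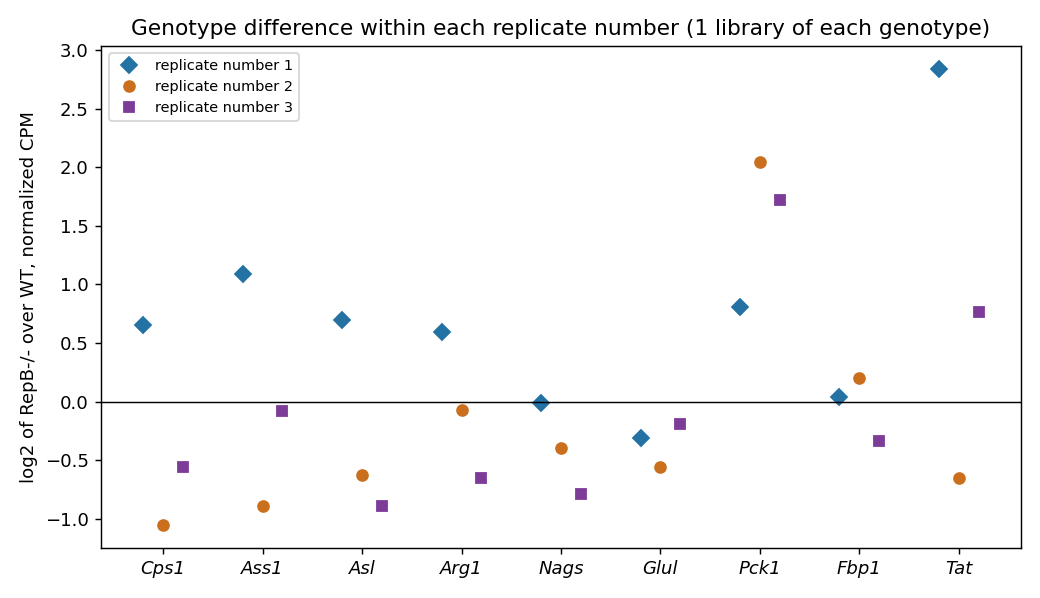
Log2 ratio of RepB-/- over WT normalized CPM within replicate numbers 1 (blue diamonds), 2 (orange circles) and 3 (purple squares), for the 9 genes, with 1 library of each genotype behind each point. Cps1, Ass1, Asl and Arg1 lie above 0 in number 1 and below 0 in numbers 2 and 3, and Pck1 lies above 0 in all 3.

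Whether the genotype difference was unlike in number 1 and in numbers 2 and 3 was tested by an interaction term, with 2 residual degrees of freedom. Over all genes 2 of 18265 passed (0.0109%), and 0 of the 9 did, with 4 of the 9 and 954 genes at an unadjusted p under 0.05. The term, number 1 minus the others, was 2.75 ± 0.67 for Tat (adjusted p = 0.847), 1.58 ± 0.51 for Ass1 (adjusted p = 0.929), 1.45 ± 0.45 for Cps1 (adjusted p = 0.926) and 1.44 ± 0.47 for Asl (adjusted p = 0.929). DESeq2 called 138 genes, among them Tat alone of the 9 (log2 difference 2.76 ± 0.65, adjusted p = 0.0048). WT replicate 1 held the lowest Tat value of the 6 libraries. Number 1 has 1 library of each genotype, so these terms, the DESeq2 call of Tat included, rest on those 2 libraries and take their spread from numbers 2 and 3. Without the library with Y-linked counts, with 1 residual degree of freedom, 0 of the 9 genes passed and the term was 2.38 ± 0.44 for Tat (adjusted p = 0.163).

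Other parts of the same pathways were read from fixed lists, none of which held a called gene between genotypes. The counts by replicate number in these lists stand beside 8.76% higher and 6.82% lower of all tested genes (7.14% and 4.54% with the block). Of 5 other urea cycle enzymes and carriers, 0 passed between replicate 1 and the others, with a median log2 difference of 0.10. Of these differences 3 were above 0 and 2 below. Under the filter by genotype 4 of the 5 were tested, so this median is partly set by the filter. Otc, the X-linked enzyme that makes citrulline, read 445, 362 and 606 normalized CPM in RepB-/- and 226, 493 and 436 in WT. Its log2 difference was 0.29 ± 0.39 between genotypes (adjusted p = 1.00) and −0.56 ± 0.32 between replicate 1 and the others (adjusted p = 0.278). Slc25a15, the ornithine carrier, differed by −0.47 ± 0.42 (adjusted p = 0.487) between replicate 1 and the others, and Slc25a13, the aspartate-glutamate carrier citrin, by 0.10 ± 0.28 (adjusted p = 0.838). Arg2, the mitochondrial arginase, had 40 to 70 counts in replicate 1 and 12 to 19 in the others (adjusted p = 0.0679).

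In glutamine and ammonia handling, 2 of 13 genes were higher and 3 lower in replicate 1 (1 and 3 with the block). Prodh, which opens proline breakdown, was lower by a log2 difference of −3.66 ± 0.57 (adjusted p = 0.0124), Slc1a2, a glutamate carrier of pericentral hepatocytes, by −3.11 ± 0.54 (adjusted p = 0.0164) and Oat, which feeds ornithine into glutamate, by −2.78 ± 0.39 (adjusted p = 0.0093). Oat read 51.2 and 61.8 normalized CPM in replicate 1 and 221 to 524 in the others.

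Among the 18 other gluconeogenesis enzymes and carriers, 4 were higher and 2 lower in replicate 1 (2 and 2 with the block), with a median of 0.14. Pck2, the mitochondrial counterpart of Pck1, was higher by 1.96 ± 0.30 (adjusted p = 0.0116), from 2.09 to 4.03 normalized CPM in the other libraries to 8.79 and 12.1 in replicate 1. Gpt and Gpt2, the alanine aminotransferases, were lower by −3.58 ± 0.50 (adjusted p = 0.0096) and −3.01 ± 0.21 (adjusted p = 0.0014). Fbp2, the muscle counterpart of Fbp1, had 16 and 43 counts in replicate 1 and at most 2 in any other library (adjusted p = 0.0343). This call was lost with the block (adjusted p = 0.0602). Fbp2, counted among the 4 higher genes, did not pass the filter by genotype and entered here through replicate 1, where it is high. G6pc, the glucose 6-phosphatase of the last step, was named after its values were seen, and was higher by 1.16 ± 0.25 (adjusted p = 0.0291). It read 1011, 456 and 310 normalized CPM in RepB-/- and 342, 202 and 161 in WT, above WT within each replicate number, as was Pck1.

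**Figure D5:**
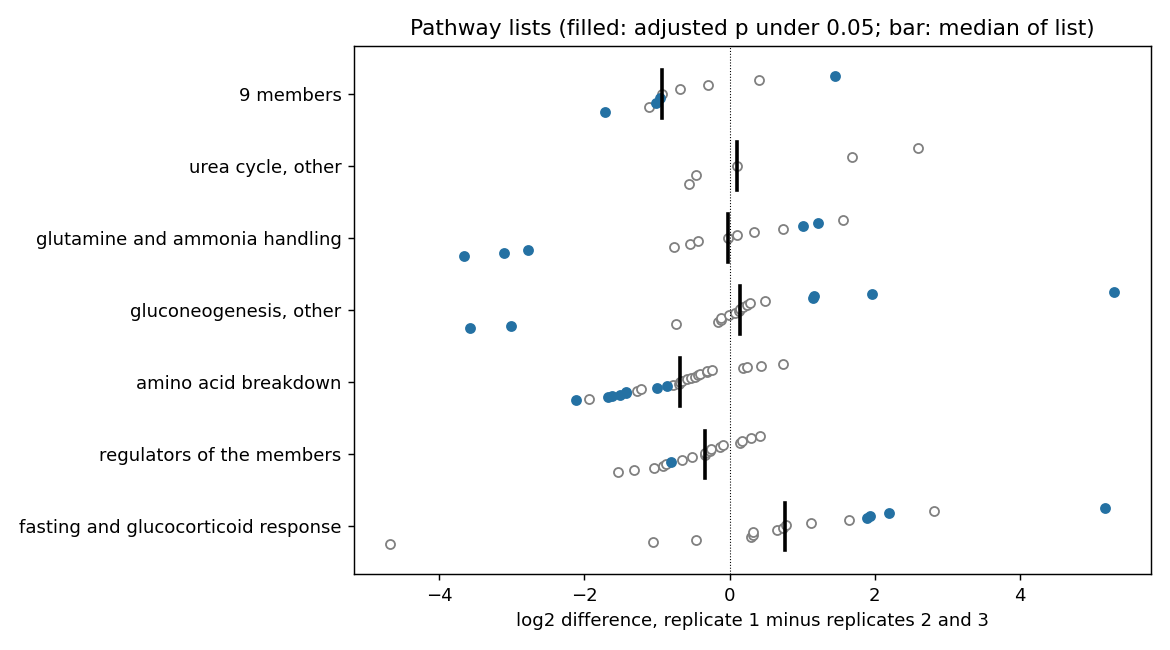
Log2 difference of replicate 1 minus replicates 2 and 3 for each tested gene of the 9 and of 6 pathway lists, with filled points where the adjusted p was under 0.05 and a bar at the median of the list. The amino acid list has its median at −0.69 with 8 genes lower and none higher, and the fasting list at 0.76 with 4 genes higher and none lower.

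Amino acid breakdown, the source of the ammonia, had 8 of 27 genes lower in replicate 1 and 0 higher, with a median of −0.69 (5 lower with the block). Gnmt, the glycine N-methyltransferase, differed by −2.12 ± 0.46 (adjusted p = 0.0306), Hal, the histidine ammonia lyase, by −1.68 ± 0.35 (adjusted p = 0.0269), Aass of lysine breakdown by −1.63 ± 0.36 (adjusted p = 0.0324) and Haao of tryptophan breakdown by −1.51 ± 0.26 (adjusted p = 0.0153). The call of Aass was lost with the block (adjusted p = 0.0536) and that of Gnmt without the library with Y-linked counts (adjusted p = 0.0647). The list of fasting and glucocorticoid responses went the other way, with 4 of 16 genes higher, 0 lower and a median of 0.76. Igfbp1, a secreted binding protein of insulin-like growth factors, rose from 21.5 to 143 normalized CPM in the others to 1361 and 2147 in replicate 1, a log2 difference of 5.17 ± 0.47 (adjusted p = 0.0031). Per1, a clock gene, was higher by 2.20 ± 0.25 (adjusted p = 0.0056), the kinase Sgk1 by 1.94 ± 0.19 (adjusted p = 0.0039) and the insulin receptor substrate Irs2 by 1.90 ± 0.22 (adjusted p = 0.0059). Without the library with Y-linked counts 6 of 27 amino acid breakdown genes were lower and 6 of 16 fasting genes higher. Tat and Pck1, both known to respond to glucocorticoids and fasting, had opposite signs in this comparison, and only Pck1 passed. The sign of Tat rested on WT replicate 1, without which its log2 difference was 0.024.

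Of 18 regulators of these genes, 1 was lower in replicate 1 and 0 higher, with a median of −0.34. Over all tested genes 6.82% were lower and 8.76% higher, so this count does not set the regulators apart. Hnf4a, a nuclear receptor of hepatocytes, differed by −0.81 ± 0.20 (adjusted p = 0.0417), a call lost with the block (adjusted p = 0.0899). Cebpa, a C/EBP factor, read 22.6 normalized CPM in RepB-/- replicate 1 and 261 to 310 in the other 5 libraries, so that it followed a single library and not the number (adjusted p = 0.257). Cebpb, a related factor, differed by 0.42 ± 0.31 (adjusted p = 0.385). It read 144, 175 and 176 normalized CPM in RepB-/- and 105, 49.6 and 51.8 in WT. The genotypes thus did not overlap, as for 8.05% of all tested genes. Its log2 difference between genotypes, 1.26 ± 0.34, did not pass.

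Markers of liver zones were also read, since the cycle enzymes lie near the portal vein and Glul near the central vein. In replicate 1, 4 of 10 periportal genes were lower and 2 higher (1 higher with the block), and 5 of 14 pericentral genes were lower and 0 higher, with medians of −0.42 and −0.53. Pigr, the polymeric immunoglobulin receptor, differed by −6.38 ± 0.59 (adjusted p = 0.0034), the cytochrome Cyp2f2 by −5.06 ± 0.51 (adjusted p = 0.0041) and the apolipoprotein Apoa4 by −3.31 ± 0.27 (adjusted p = 0.0024), with Hal the fourth. G6pc, described above, was among the 2 higher periportal genes, by 1.16 ± 0.25 (adjusted p = 0.0291). Among pericentral genes the cytochromes Cyp27a1 and Cyp1a2 differed by −2.85 ± 0.30 (adjusted p = 0.0047) and −1.83 ± 0.24 (adjusted p = 0.0085), beside Slc1a2 and Oat above. Markers of both zones were thus among the lower genes, as were Ass1 and Glul. Without the library with Y-linked counts 4 periportal and 5 pericentral genes were lower, and 1 periportal gene, G6pc, was higher.

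The 9 genes had no single pattern over the libraries, since Pck1 correlated with Glul at −0.87 and with Cps1 at −0.82, and Fbp1 with Glul at −0.84 (Pearson, log2 CPM, 6 libraries). The genes most like their average were found by Pearson correlation of log2 CPM with the mean standardized log2 CPM of the 9, over 7657 protein-coding genes. They were Amdhd1, an enzyme of histidine breakdown (r = 0.991), Shb (0.988), Commd6 (0.986), Hgd, an enzyme of tyrosine breakdown (0.985), and Atxn1l (0.985). The 6 libraries are the only points behind each value, and without the library with Y-linked counts the 5 values of r were 0.985 to 0.992. The average was −0.94 in WT replicate 1 and lay between −0.11 and 0.57 in the other 5 libraries, and Pck1 and Fbp1 ran against it (r = −0.66 and −0.51).

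In MEFs, a cell type outside the liver, 3 of the 9 genes passed the filter on low counts. Genotype calls were common there, 5202 of 13306 genes or 39.1%, and 0 of these 3 genes passed. Depth was split by genotype, with 20005541 to 20587556 counts in RepB-/- libraries and 11540344 to 16347806 in WT. The part of depth in the MEF calls was not tested. Ass1 held a median of 149 FPKM, Glul 20.3 and Asl 5.97. Ass1 had 325 ± 46 (SD, n = 3) normalized CPM in RepB-/- against 395 ± 55 in WT, a log2 difference of −0.28 ± 0.11 (adjusted p = 0.0568). It passed under DESeq2 (adjusted p = 0.0472). Glul differed by −0.19 ± 0.10 (adjusted p = 0.137) and Asl by −0.13 ± 0.095 (adjusted p = 0.314). Cps1, Arg1, Nags, Pck1, Fbp1 and Tat had at most 12 counts in any MEF library.

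Some of the 9 genes share sequence or place with other rows of the table. The processed pseudogene Gm5424 shares 87.7% of its words of 25 bases with Ass1 transcripts and held 410 to 2655 counts, against 28982 to 167806 for Ass1. Glns-ps1 shares 53.9% with Glul and held 18 to 307 counts, against 21825 to 49584 for Glul. Nags overlaps the antisense gene Gm11586, which had at most 39 counts, and Glul overlaps Teddm2 on the other strand, with at most 48. The start of Glul also overlaps Mir8114, a row with 1042 to 2072 counts in 4 libraries and 1 count each in WT replicates 2 and 3. The strand setting of the counting is not given in the sources used here.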

How the data were processed

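The authors made poly(A) RNA libraries, trimmed reads with Cutadapt and used Hisat2 for alignment, as the methods state for MEFs. The submitters' processing notes also list STAR 2.7.0 and HTSeq 0.12.4. The counting tool of these tables is not given in the sources used here. The deposited counts are whole reads per gene without normalization. The deposited TPM (liver) and FPKM (MEFs) are scaled by gene length and depth by the authors, and were used for levels only. The 6 FPKM columns of liver were not used. Liver positions are those of GRCm38. Depth was 37682201 to 51542709 counts per liver library and 11540344 to 20587556 per MEF library.

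Groups and replicate numbers came from library titles, with B read as RepB-/- and W as WT. Each table was fitted with edgeR 4.0.16 in R 4.3.3 (TMM, filterByExpr, quasi-likelihood test, Benjamini-Hochberg adjustment over all genes tested, threshold 0.05). Liver was compared by genotype, by replicate 1 against 2 and 3 with genotype in the model, and by their interaction. Adjusted p-values throughout are from edgeR unless DESeq2 1.42.0 is named, and errors of log2 differences are standard errors. The fits by genotype and by replicate 1 were also run on simulated counts, to check that set differences were estimated. Those counts had the same spread for all genes, unlike the real libraries, so they do not bear on the calls above. After removal of genotype means, liver libraries with the same number correlated at 0.710, 0.361 and 0.365. The deviations cancel within a genotype, so the shared split of replicate 1 alone raises all 3 values. Libraries of unlike numbers were not compared. These values therefore cannot show that numbers 2 and 3 pair the liver samples, and the block was run as an alternative.

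The 9 genes, the lists, the split by replicate 1 and the tests were chosen with earlier results of these data known. From each list at most 4 called genes were named, largest difference first, then genes in listed order, and some genes that this would name are not reported here. Otc was always named, and the 5 genes most like the 9 had a mean of at least 10 CPM, with 0.5 added before the log2. Alternatives were DESeq2, its size factors, library totals, the hepatocyte list, no filter, the replicate block, a term for replicate 1 (also leaving out the library with Y-linked counts), and each library left out. Replicates 2 and 3 alone, no term for genotype, and the interaction without the library with Y-linked counts were chosen after seeing the data. Protein sequences were not used here. Tables and figures used pandas 2.3.3 and matplotlib 3.10.9 in Python 3.11.15.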

Additional observations from a re-analysis of the deposited data

How the results depend on the processing

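Between genotypes in liver, 0 of the 9 genes passed under every alternative run. The count of all genes higher and lower in RepB-/-, 1 and 5 by edgeR, was 32 and 43 with DESeq2, 0 and 0 with library totals alone and with no filter on low counts, 0 and 4 with scaling by the hepatocyte list, 3 and 5 with the replicate block, 3 and 6 with a term for replicate 1, 1 and 2 with that term and the library with Y-linked counts left out, and 1 and 1 with replicates 2 and 3 alone. With 1 library left out it was 0 to 1 higher and 0 to 3 lower. The genotype difference of Ass1 (−0.28) turned to 0.036 with the replicate block, 0.031 with the term for replicate 1, 0.33 with that term and the library with Y-linked counts left out, and it ran from −0.74 to 0.21 with 1 library left out (0.21 without WT replicate 2). That of Arg1 (−0.15) ran from −0.49 to 0.095, above 0 without WT replicate 2 (0.018) or WT replicate 3, and that of Fbp1 (−0.017) from −0.18 to 0.15, above 0 without RepB-/- replicate 3 or WT replicate 1 (0.12). The replicate block changed no other call of the 9 genes between genotypes. The cause of these turns was not tested.

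For replicate 1 against 2 and 3, 4 of the 9 genes passed. This count was 1 with library totals alone, 2 with scaling by the hepatocyte list, 1 with the replicate block, 5 with DESeq2 (Arg1 added) and 3 with no term for genotype (Pck1 lost), and 0 to 4 with 1 library left out. Library totals moved the median of all genes to 0.28, beside −0.67 for the 9, and the hepatocyte list moved it to 0.15, beside −0.79. The genes lower in replicate 1, 1161 by edgeR, were 1886 with DESeq2, 651 with library totals alone, 773 with the replicate block and 202 to 1281 with 1 library left out. The genes higher, 1491 by edgeR, were 199 to 1430 with 1 library left out. With 1 library left out the difference of Asl ran from −1.09 to 0.36 and that of Tat from −2.73 to 0.024, above 0 without WT replicate 1. For the interaction, DESeq2 called 71 genes higher and 67 lower, against 1 and 1, and 1 of the 9 genes against 0, and 7 were higher and 12 lower without RepB-/- replicate 2.

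In MEFs 1 of the 9 genes passed, against 0, with DESeq2, with DESeq2 size factors in edgeR, with no filter on low counts and with the replicate block, and 0 to 1 with 1 library left out. This was Ass1, except for Glul without WT replicate 2. Same-numbered MEF libraries correlated at −0.011, −0.042 and −0.0035, so the numbers are shared in name only there. In the replicate comparison a fit without a replicate 1 library assumes that the lone one left varies like the rest. The biological coefficient of variation within a genotype was 51.2% in liver, 33.6% in liver with the term for replicate 1 and 9.06% in MEFs, which limits the differences that 3 libraries a genotype can show in liver.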
